A study of Homo sapiens with 4 samples.

Results

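The genes described here are YAP1 and WWTR1, the coactivators at the end of the Hippo pathway, their DNA-binding partner TEAD4, the kinase LATS2, and the target genes CYR61, CTGF, ANKRD1, AMOTL2 and AXL. They were chosen by name from a list of 10 symbols, of which 9 had a row among the 18398 transcript rows of each library, and TEAD1 was not analysed here. CYR61 was put on the list because it was at least 2-fold higher after knockdown in both cell lines, so its knockdown values are given as a description without a test. RNA was sequenced from Huh1 and Huh7, established cell lines derived from human hepatocellular carcinoma, 48 h after transfection with 15 nM of a siRNA. The 4 groups were Huh1 with NCsiRNA (a negative control siRNA), Huh1 with CDCA8siRNA, Huh7 with NCsiRNA and Huh7 with CDCA8siRNA, each with 1 library. CDCA8 encodes borealin, a subunit of the chromosomal passenger complex that guides chromosome segregation, and the comparison asked how gene expression changes when it is silenced. With 1 library per group and 1 siRNA against CDCA8 there was no replicate of any condition, and neither the variation between transfections nor an effect of the siRNA on other transcripts could be measured.

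In the Hippo pathway, the kinases MST1 and MST2 activate LATS1 and LATS2, which phosphorylate YAP and TAZ (the product of WWTR1) and keep them out of the nucleus. Unphosphorylated YAP and TAZ enter the nucleus and bind TEAD proteins, which carry them to DNA and switch on genes for matrix proteins, cytoskeletal regulators and growth. Several targets feed back on the pathway, since LATS2 phosphorylates YAP and AMOTL2 holds it at junctions and on actin. In the liver the pathway is known for its hold on organ size and on hepatocyte identity. Activity of YAP is set largely by phosphorylation and location of the protein, which RNA levels do not show.

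The sequence that TEAD proteins bind is known from the muscle CAT element and its core letters are GGAATG. The 250 bases before the annotated start were found for 7 of the 9 genes in the RefSeq promoter table (GRCh38.p14), in 10 windows, while CYR61 and TEAD4 had no entry. GGAATG, read on either strand, was present in 5 windows, belonging to YAP1, CTGF, ANKRD1, AMOTL2 and AXL, and in 11.9% of all 35116 windows of this length. CTGF held 3 copies, a number reached by 0.0826% of windows, and ANKRD1 held 2, a number reached or passed by 0.940%. The windows of CTGF, ANKRD1 and the second annotated start of AMOTL2 are shown, because the response of these 3 target genes to knockdown differed most between the cell lines among the 9. They lie at chr6:131951373-131951622, chr10:90921088-90921337 and chr3:134374448-134374697, all on the minus strand, and are written 5′ to 3′ as transcribed, with GGAATG or its reverse complement CATTCC in capitals.
CTGF: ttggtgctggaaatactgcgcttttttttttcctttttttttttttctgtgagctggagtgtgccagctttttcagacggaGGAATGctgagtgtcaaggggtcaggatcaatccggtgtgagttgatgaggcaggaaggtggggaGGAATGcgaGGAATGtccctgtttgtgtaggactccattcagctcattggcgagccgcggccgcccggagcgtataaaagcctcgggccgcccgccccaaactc
ANKRD1: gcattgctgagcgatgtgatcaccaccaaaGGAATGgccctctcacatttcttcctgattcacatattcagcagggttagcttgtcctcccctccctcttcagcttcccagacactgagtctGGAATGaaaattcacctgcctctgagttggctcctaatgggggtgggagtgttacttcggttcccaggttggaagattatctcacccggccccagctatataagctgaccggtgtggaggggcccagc
AMOTL2: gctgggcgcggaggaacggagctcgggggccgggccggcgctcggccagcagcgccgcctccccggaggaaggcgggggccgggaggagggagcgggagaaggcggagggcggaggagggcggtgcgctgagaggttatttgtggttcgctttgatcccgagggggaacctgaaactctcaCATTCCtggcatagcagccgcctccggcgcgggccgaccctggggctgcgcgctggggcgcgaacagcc
The copies in CTGF began 169, 104 and 95 bases before the start, those in ANKRD1 began 220 and 128 bases before it, and the reverse copy in AMOTL2 began 69 bases before it. YAP1 held 1 copy, 162 bases before its start. The AP-1 letters TGACTCA or TGAGTCA were in 0 of the 10 windows and in 4.20% of all windows. A match to 6 letters is a description of sequence and does not show binding in these cells, and no position in the expression files was used to find these windows.

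The libraries held between 12197606 and 13384836 reads, as worked out from the values, and 2568 to 3169 rows per library were at 0. Levels are RPKM, reads divided by transcript length in kilobases and by library depth, so that genes of different length can be compared. CDCA8 itself was at 24.1 RPKM in Huh1 with NCsiRNA and 5.86 with CDCA8siRNA, and at 51.5 and 7.36 RPKM in Huh7, which left 24.3% and 14.3% of the control level. All 10 hepatocyte markers examined were at or above 1 RPKM in every library, with a summed level of 6839 and 6090 RPKM in Huh1 and 6736 and 4875 RPKM in Huh7 (NCsiRNA first). Of these, ALB, APOA1, APOB, SERPINA1 and HNF4A fell in the limma fit over both lines (limma, a linear model with a moderated error, fitted to all genes), with ALB at 3447, 2684, 1166 and 721 RPKM, while the other 5 were not called. Over all genes 2.65% were called lower in this fit. In limma without a minimum RPKM, or without the cell line in the model, 0 genes were called. TTR was higher with CDCA8siRNA in Huh7 (29.3 and 48.5 RPKM), and AFP, KRT8 and KRT18 were higher in Huh1 (AFP at 24.8 and 27.5 RPKM). The part of the hepatocyte markers in the results on knockdown was not tested. In bulk RNA, fewer cells of a type and less RNA per cell cannot be told apart. The 4 endothelial markers with a row summed to at most 0.025 RPKM in any library. Among 5 leukocyte markers, CD68 alone passed 1 RPKM, and PTPRC, which all leukocytes carry, was at or below 0.417 RPKM.

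Fold changes within a cell line are differences of log2(RPKM + 1), CDCA8siRNA minus NCsiRNA, and the added 1 makes them smaller than the plain ratio for low genes. Intervals of plain ratios are exact binomial 95% intervals from the reads behind the values, and they cover counting error only. Reads of 8 of the 9 genes rest on GENCODE lengths and are approximate. For CYR61 a length of 2293 bases was used, which gave reads within 0.02 of a whole number in all 4 libraries and was the nearest to GENCODE's 2290 bases among 8 lengths that did so. A gene is called changed within a line at 2-fold, a rule without a test. Of 10940 genes that reached 1 RPKM in a Huh1 library, 0.32% passed 2-fold upward with CDCA8siRNA and 0.174% downward. Of 11565 such genes in Huh7, 0.873% passed it upward and 0.7% downward. All 9 genes passed this filter in both lines. CYR61 and ANKRD1 were 2-fold higher in Huh1, CYR61 in Huh7, and 0 of the 9 were 2-fold lower in either line. Leaving out CYR61, whose direction the choice fixed, 7 of 8 were higher by any amount in Huh1, where 55.1% of all genes were, and 5 of 8 in Huh7, where 54.5% of all genes were. The median of all genes was 0.02 in Huh1 and 0.03 in Huh7 on the log2 scale.

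**Figure D1:**
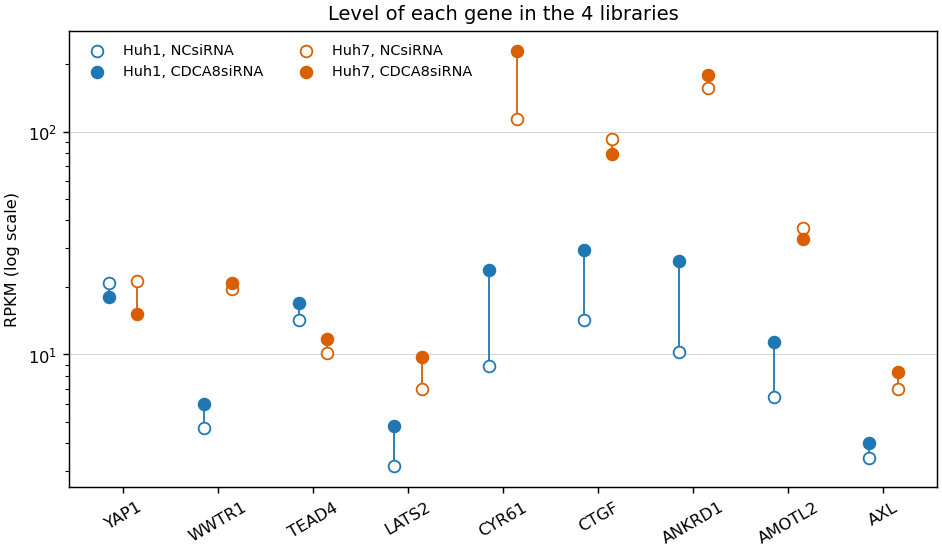
Level of the 9 genes in RPKM (log scale) in each of the 4 libraries, blue for Huh1 and orange for Huh7, open for NCsiRNA and filled for CDCA8siRNA, each point 1 library. CYR61, CTGF, ANKRD1, AMOTL2, WWTR1, LATS2 and AXL sit higher in both Huh7 libraries than in both Huh1 libraries, while YAP1 stays between 15.2 and 21.4 RPKM. The share of all genes separated in this way was not counted, and 71.2% of all genes tested were called between the lines in limma.

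Of the coactivators, WWTR1 was higher in both Huh7 libraries than in both Huh1 libraries, whereas the levels of YAP1 overlapped. How many of all genes separate in this way was not counted. YAP1 was at 20.9 RPKM in Huh1 with NCsiRNA, 18.2 in Huh1 with CDCA8siRNA, 21.4 in Huh7 with NCsiRNA and 15.2 in Huh7 with CDCA8siRNA. It was lower with CDCA8siRNA in both lines, and the ratio was 0.867 (95% counting interval 0.774 to 0.970) in Huh1 and 0.712 (0.629 to 0.805) in Huh7. WWTR1 was at 4.66 and 6.01 RPKM in Huh1 and at 19.6 and 20.9 RPKM in Huh7. Its ratio with CDCA8siRNA was 1.29 (1.11 to 1.5) in Huh1 and 1.07 (0.986 to 1.16) in Huh7, the latter within counting error of no change. The level of YAP1 was 4.49 times that of WWTR1 in Huh1 with NCsiRNA and 3.02 times with CDCA8siRNA. In Huh7 the same ratio was 1.09 with NCsiRNA and 0.727 with CDCA8siRNA, so the last library was the one with more WWTR1 than YAP1 RNA.

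TEAD4, which binds DNA for the coactivators, was at 14.3 and 17.0 RPKM in Huh1 and at 10.1 and 11.7 RPKM in Huh7. It was the one gene of the 9 with lower levels in both Huh7 libraries than in both Huh1 libraries, a separation not counted over all genes. With CDCA8siRNA its ratio was 1.19 (1.01 to 1.41) in Huh1 and 1.15 (0.937 to 1.42) in Huh7, from 172 to 314 reads per library. LATS2, a kinase that acts on YAP and TAZ and is also their target, was at 3.15 and 4.76 RPKM in Huh1 and at 7.01 and 9.72 RPKM in Huh7. Its ratio with CDCA8siRNA was close in the lines, 1.51 (1.27 to 1.79) in Huh1 and 1.39 (1.23 to 1.56) in Huh7.

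CYR61 (CCN1), a secreted matrix protein that binds integrins, was at 8.83 and 24.0 RPKM in Huh1 and at 113 and 229 RPKM in Huh7, from 271, 727, 3171 and 6431 reads. The ratio with CDCA8siRNA was 2.72 (2.36 to 3.14) in Huh1 and 2.02 (1.93 to 2.10) in Huh7, values that chose it for the list. Its log2 fold changes were 1.35 and 1.01, the latter just past the 2-fold call, which it missed under upper quartile scaling (0.99). Its level in Huh1 with CDCA8siRNA was still below that in Huh7 with NCsiRNA. The gene lies at chr1:85580761-85583950 (RefSeq, GRCh38.p14). Its rank by RPKM moved from the 64.7th to the 82.6th percentile of all rows in Huh1 and from the 96.8th to the 98.8th in Huh7.

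CTGF (CCN2), the relative of CYR61 in the same family of matrix proteins, was at 14.2 and 29.4 RPKM in Huh1 and at 92.4 and 79.4 RPKM in Huh7. It was higher with CDCA8siRNA in Huh1, with a ratio of 2.07 (1.84 to 2.32), and lower in Huh7, with a ratio of 0.860 (0.812 to 0.909). On the log2(RPKM + 1) scale the Huh1 value rounds to 1.00 but lay just under the 2-fold call, which it passed with a pseudocount of 0.1 RPKM (1.04). The level of CYR61 was 0.621 and 0.817 times that of CTGF in Huh1 and 1.23 and 2.88 times in Huh7 (NCsiRNA first), so that the order of the pair turned between the lines. CTGF was the more abundant of the pair in Huh1 and CYR61 in Huh7.

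ANKRD1, an ankyrin repeat protein of nucleus and sarcomere, was at 10.3 and 26.2 RPKM in Huh1 and at 157 and 178 RPKM in Huh7. With CDCA8siRNA its ratio was 2.54 (2.21 to 2.94) in Huh1 and 1.14 (1.09 to 1.19) in Huh7. AMOTL2, an angiomotin that binds YAP, was at 6.47 and 11.3 RPKM in Huh1 and at 37.1 and 33.0 RPKM in Huh7. Its ratio was 1.75 (1.55 to 1.99) in Huh1 and 0.891 (0.836 to 0.949) in Huh7. AXL, a receptor tyrosine kinase whose ligand is GAS6, was at 3.43 and 4.0 RPKM in Huh1 and at 7.02 and 8.36 RPKM in Huh7. Its ratio was 1.17 (0.929 to 1.46) in Huh1 and 1.19 (1.01 to 1.40) in Huh7, from 147 to 329 reads per library.

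Among the genes of Huh1 ranked from the highest log2 fold change, CYR61 was number 5, ANKRD1 number 10, CTGF number 36 and AMOTL2 number 136. In Huh7 CYR61 was number 97, ANKRD1 number 3404, AMOTL2 number 8834 and CTGF number 9411. The response was therefore set side by side in the lines, as the log2 fold change in Huh7 minus that in Huh1. This difference was −1.21 for CTGF, −1.08 for ANKRD1, −0.89 for AMOTL2 and −0.34 for CYR61, with counting SDs of 0.0888, 0.101, 0.0932 and 0.0990. It was −0.27 for YAP1 and −0.22 for WWTR1, and 0.05, −0.05 and −0.05 for AXL, TEAD4 and LATS2. Across 10357 genes that passed the filter in both lines its median was −0.01 and its SD 0.27, and 0.222% of them were at −1 or below, CTGF and ANKRD1 among them. CTGF and AMOTL2 were higher in Huh1 and lower in Huh7 with CDCA8siRNA, as were 15.8% of all genes, and 30.6% of all genes had opposite directions of either kind. The 4 libraries leave no residual error for a difference of responses, so none of these differences was tested.

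**Figure D2:**
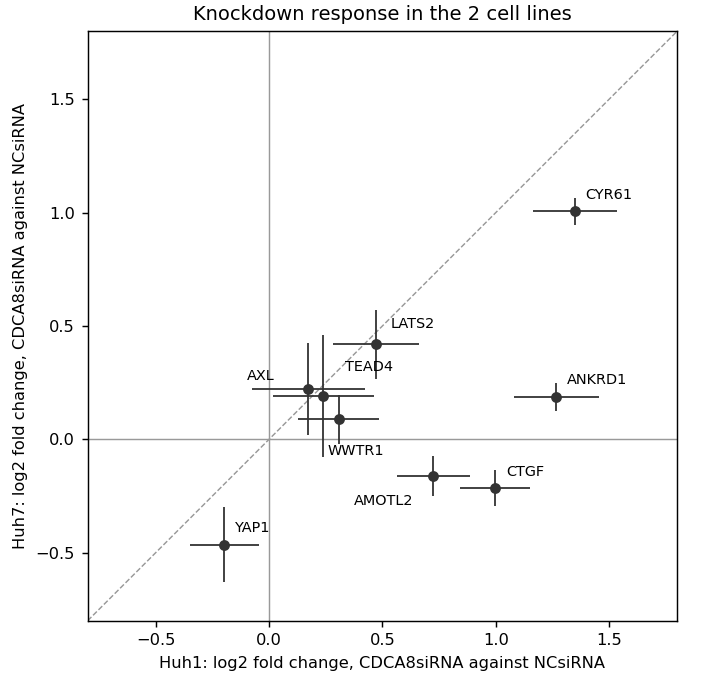
Log2 fold change with CDCA8siRNA against NCsiRNA in Huh1 (horizontal) and Huh7 (vertical), 1 point per gene, with bars giving approximate 95% counting intervals and a dashed line where the lines are equal. CTGF, ANKRD1 and AMOTL2 lie far below the dashed line, whereas LATS2, AXL and TEAD4 lie on or near it.

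The mean change over both lines was tested with limma on all 4 libraries, adjusting for the cell line, over 12148 genes. In this fit the lines stand in for replicates. The p-values set the mean response against a moderated error from how far the lines differed, not from how repeated transfections vary. A low p-value therefore does not mean that the 2 lines responded alike. At an adjusted p under 0.05 (Benjamini-Hochberg), 6.39% of all genes were called, 3.74% higher and 2.65% lower. Among the 8 genes other than CYR61, 0 were called. At an unadjusted p under 0.05, 3 of the 8 passed, against 22.8% of all genes. These were LATS2, with a log2 fold change of 0.45 (SE 0.116, limma adjusted p = 0.0586), ANKRD1, with 0.73 (SE 0.204, limma adjusted p = 0.0731), and YAP1, with −0.33 (SE 0.108, limma adjusted p = 0.111). Of the alternatives run, ANKRD1 passed the adjusted threshold under quantile normalization alone (limma adjusted p = 0.00339, range 0.00339 to 1.00 over the alternatives). For CTGF and AMOTL2, whose directions were opposite, the shared values were 0.39 (SE 0.226, limma adjusted p = 0.352) and 0.28 (SE 0.181, limma adjusted p = 0.404). WWTR1, AXL and TEAD4 had shared values of 0.20, 0.20 and 0.21, with limma adjusted p from 0.257 to 0.361.

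The rule did not use the difference between the lines, and it was tested with limma as Huh7 minus Huh1, with the siRNA as a covariate. Most of the genome differed, with 71.2% of 12148 genes called, 42.5% higher in Huh7 and 28.7% lower, so a call alone sets these genes little apart. Of the 9 genes, 7 were called higher in Huh7 and 1 lower. CYR61 was higher by 3.37 on the log2 scale (SE 0.105, limma adjusted p = 2.61e-08) and ANKRD1 by 3.26 (SE 0.204, limma adjusted p = 1.68e-06). CTGF was higher by 2.01 (SE 0.226, limma adjusted p = 6.05e-05), AMOTL2 by 1.91 (SE 0.181, limma adjusted p = 2.09e-05) and WWTR1 by 1.76 (SE 0.111, limma adjusted p = 1.79e-06). LATS2 was higher by 0.92 (SE 0.116, limma adjusted p = 0.000117) and AXL by 0.88 (SE 0.117, limma adjusted p = 0.000167). TEAD4 was lower, at −0.48 (SE 0.102, limma adjusted p = 0.00254), and YAP1 was not called, at −0.10 (SE 0.108, limma adjusted p = 0.403). The median of all genes in this comparison was 0.14, and quantile normalization moved it to −0.01, with all 8 calls kept. The 2 libraries of a line differ in siRNA and nothing says that they came from separate stocks. The test therefore sets the mean line difference against a moderated error from how far it varied between the siRNAs. It does not ask whether that difference was alike with both siRNAs.

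Seen as plain ratios of Huh7 to Huh1, ANKRD1 was at 15.2 (95% counting interval 13.5 to 17.3) with NCsiRNA and at 6.82 (6.29 to 7.40) with CDCA8siRNA. CYR61 was at 12.8 (11.3 to 14.6) and 9.51 (8.81 to 10.3), CTGF at 6.50 (5.87 to 7.20) and 2.70 (2.50 to 2.92), and AMOTL2 at 5.73 (5.14 to 6.40) and 2.91 (2.66 to 3.18). For each of these 4 target genes the intervals with the different siRNAs did not overlap. The intervals cover counting error only, and the share of all genes with such separate intervals was not counted. WWTR1 was at 4.21 (3.71 to 4.78) and 3.48 (3.11 to 3.91), whose intervals did overlap. LATS2 was at 2.22 and 2.04, AXL at 2.05 and 2.09, YAP1 at 1.02 and 0.839, and TEAD4 at 0.708 and 0.685. These ratios hold the same information as the differences of response, from the same libraries. A smaller ratio with CDCA8siRNA was common among genes far higher in Huh7, since 70.6% of the 265 genes at least 5-fold higher there with NCsiRNA had one.

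**Figure D3:**
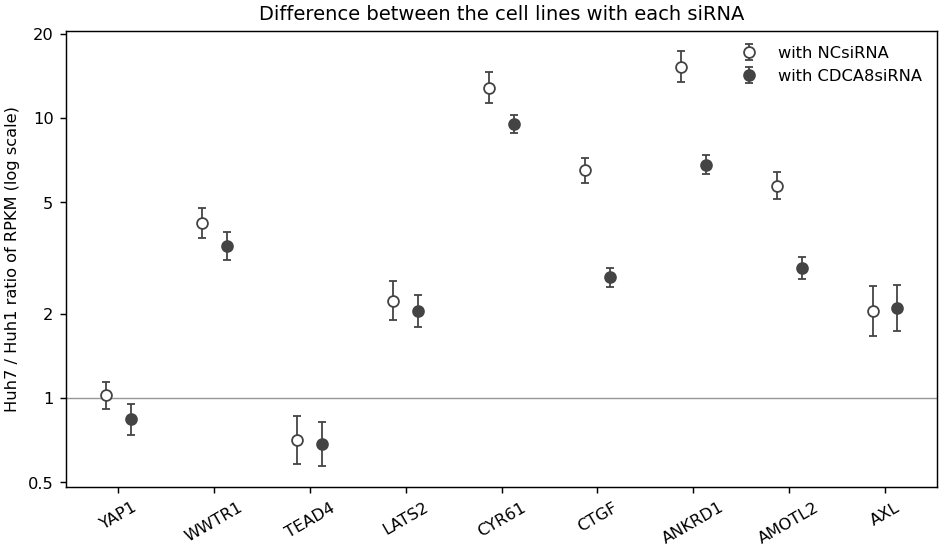
Ratio of Huh7 to Huh1 RPKM (log scale) for the 9 genes, open with NCsiRNA and filled with CDCA8siRNA, bars giving 95% counting intervals. The ratios of CYR61, CTGF, ANKRD1 and AMOTL2 are above 5 with NCsiRNA and smaller with CDCA8siRNA, those of LATS2 and AXL stay near 2, and TEAD4 is below 1 with both.

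Genes of the pathway were then taken from lists, which overlap the genes described above. LATS2 is in the Hippo kinase cassette, AMOTL2 among the upstream regulators, and YAP1, WWTR1 and TEAD4 among the TEAD proteins and cofactors. The counts given for these lists include those genes, so the counts partly repeat the results above. The Hippo kinase cassette (MST, LATS, NDR, MAP4K and TAO kinases and their adaptors) had 13 genes tested, of which 0 were called in the shared knockdown fit, where 6.39% of all genes were, and its median log2 fold change was 0.17 against 0.03 for all genes. In Huh1 12 of the 13 were higher by any amount (55.1% of all genes) and in Huh7 10 of the 13 (54.5% of all genes). Between the lines, 6 of the 13 were called higher in Huh7 and 4 lower, shares near those of all genes (42.5% and 28.7%). MAP4K4, a kinase that can act on LATS in place of MST, was at 17.7, 27.3, 66.4 and 64.2 RPKM (Huh1 NCsiRNA, Huh1 CDCA8siRNA, Huh7 NCsiRNA, Huh7 CDCA8siRNA). TAOK3 went the other way between the lines, at 19.95, 23.7, 7.83 and 9.69 RPKM. MAP4K4 and TAOK3 were chosen for mention after their values were seen.

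Of 16 upstream regulators at membranes and junctions, 14 were tested in the knockdown fit, with 1 called higher and 0 lower, a share near that of all genes (6.39%), and a median of 0.10. The gene called was AJUBA (JUB in the files), a LIM protein that restrains LATS kinases, at 31.4, 47.1, 99.5 and 120 RPKM (log2 fold change 0.42, SE 0.0986, limma adjusted p = 0.0439). Between the lines, 13 of the 14 were called higher in Huh7 and 0 lower, against 42.5% and 28.7% of all genes. All 14 reached 1 RPKM in a Huh7 library, but only 10 did in a Huh1 library. The rest, AMOT among them, entered the fit through Huh7 alone, so the filter itself favoured a higher level there. NF2, which encodes the tumor suppressor merlin, was at 6.41 and 6.61 RPKM in Huh1 and at 22.8 and 25.6 RPKM in Huh7. AMOT, the founding angiomotin, was at most 0.0349 RPKM in Huh1 and at 4.39 and 3.49 RPKM in Huh7. NF2 and AMOT were likewise chosen after their values were seen.

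Among TEAD proteins and their cofactors, 8 of 10 listed genes had a row and 6 passed the filter, with 1 called higher and 0 lower in the knockdown fit (3.74% and 2.65% of all genes). That gene was TEAD2, at 18.8 and 29.1 RPKM in Huh1 and at 18.4 and 28.6 RPKM in Huh7. It rose by 0.61 in each line (shared log2 fold change 0.61, SE 0.0950, limma adjusted p = 0.0118), and its level did not differ between the lines beyond that error (log2 −0.03, limma adjusted p = 0.809). TEAD2 RNA was 1.32 and 1.71 times that of TEAD4 in Huh1 and 1.82 and 2.45 times in Huh7. VGLL3, a TEAD cofactor of the vestigial-like family, was at 0.226 and 0.310 RPKM in Huh1 and at 92.8 and 122 RPKM in Huh7, and was picked out after its values were seen. VGLL1 and VGLL2 were listed at 0 in all 4 libraries, and VGLL4 was at 13.7 to 17.1 RPKM, all 3 likewise named outside the rule.

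The wider signature of YAP and TAZ targets held 21 genes beside CYR61, of which 3 were called higher in the knockdown fit, 0 lower and 18 not called, against 3.74% of all genes higher and 2.65% lower. Its 16 genes outside the 9 described above held the same 3 calls, with a median log2 fold change of 0.25 against 0.03 for all genes. MYOF, a membrane repair protein, was at 35.5, 51.7, 52.0 and 76.1 RPKM (log2 fold change 0.53, SE 0.0863, limma adjusted p = 0.0137). IGFBP3, which binds insulin-like growth factors, was at 20.1, 30.9, 92.0 and 122 RPKM (0.50, SE 0.0924, limma adjusted p = 0.0205). NT5E (CD73), which makes adenosine outside the cell, was at 7.29, 13.3, 3.63 and 6.59 RPKM (0.75, SE 0.112, limma adjusted p = 0.00978). The calls of AJUBA, TEAD2, MYOF, IGFBP3 and NT5E were all lost in limma without the trend, without the filter on low values, or without the cell line in the model. Between the lines, 13 of the 16 were called higher in Huh7 and 2 lower, NT5E and ASAP1, against 42.5% and 28.7% of all genes. All 16 reached 1 RPKM in a Huh7 library, but only 12 did in a Huh1 library. The rest entered the fit through Huh7 alone, so the filter itself favoured a higher level there. ASAP1, and CCDC80 and NUAK2 in the plot of pathway levels, were singled out after their values were seen. The other members of the CCN family, NOV and WISP1 to WISP3, stayed below 1 RPKM in every library and were likewise named outside the rule.

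**Figure D4:**
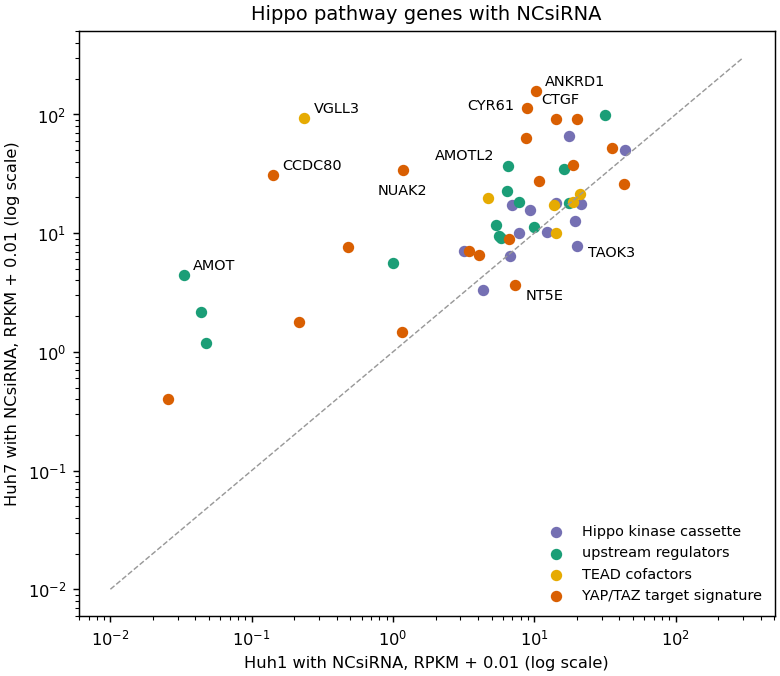
Level of 52 genes of the pathway lists in Huh7 against Huh1, both with NCsiRNA, in RPKM with 0.01 added (log scales), 1 point per gene and colored by list, with a dashed line of equal levels. Above the line are 42 genes, with VGLL3, CCDC80 and NUAK2 far from it, while TAOK3 and NT5E are below it. Only genes that reached 1 RPKM in a library are drawn. Some, VGLL3 and CCDC80 among them, reached it in Huh7 alone, which favours a place above the line. The share of all genes above the line was not counted.

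The genes most like CYR61 were sought as the smallest distance over the 4 libraries, each profile of log2(RPKM + 1) being centred on its mean, among 9972 genes at or above 1 RPKM throughout. Outside the 9 genes described here, the 5 nearest were IL8 (distance 0.462), LUM (0.520), MICAL2 (0.657), TAGLN (0.728) and TPM4 (0.780). IL8, a neutrophil chemokine, was at 7.01, 24.7, 84.9 and 151 RPKM. TPM4, a tropomyosin, was at 19.1, 77.3, 170 and 563 RPKM. ANKRD1 was at a distance of 0.591, with only IL8 and LUM nearer, whereas CTGF was at 1.63, AMOTL2 at 1.74 and WWTR1 at 1.89. Only 4 libraries enter this measure, 2 from each line. It takes in the difference between the lines as well as the response to knockdown. The knockdown log2 fold change of ANKRD1 was 1.27 in Huh1 and 0.19 in Huh7, against 1.35 and 1.01 for CYR61.

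LUM, the second of these, is also on the list of fibroblast and stellate cell markers, and it was at 11.95 and 25.6 RPKM in Huh1 and at 143 and 190 RPKM in Huh7. Of that list of 5, LUM alone passed 1 RPKM in Huh1, where DCN was at 0 and COL1A1 at no more than 0.122 RPKM. In Huh7 COL1A1 was at 107 and 125 RPKM and COL1A2 at 31.4 and 56.9 RPKM, with DCN and PDGFRB at or below 0.406. The list summed to 12.1 and 25.8 RPKM in Huh1 and to 282 and 373 RPKM in Huh7, and its part in the levels of CYR61, ANKRD1 and CTGF was not tested.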

How the data were processed

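RNA from Huh1 and Huh7 cells was analysed in 4 libraries, 1 per cell line and siRNA, grouped by their titles. Each file the authors deposited holds 18398 RefSeq rows with 1 value and no unit, which was deduced as RPKM, because low values multiplied by transcript length fell on multiples of 1 constant per library. That constant gave the depth, and lengths from GENCODE release 29 gave approximate reads. The labels name the Illumina TruSeq kit with total RNA, the submitters' processing notes name hg19, CASAVA 1.8.2 and TopHat2 2.0.9, and siRNA dose and time came from the study's methods. The counting program, annotation and strand setting are not given in the sources used here. The files hold no coordinates, so positions are RefSeq's on GRCh38.p14.

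Fold changes were differences of log2(RPKM + 1), with a pseudocount of 1 RPKM, over genes that reached 1 RPKM in any library compared. limma 3.58.1 in R 4.3.3 (lmFit, eBayes with trend) was fitted to all genes that passed, with Benjamini-Hochberg adjustment, in place of the study's own test, which the sources used here do not describe in full. The steps were tested on simulated data. Intervals are Clopper-Pearson and cover counting error only. Python 3.11.15 with pandas 2.3.3 and scipy 1.17.1 did the rest. The members and lists were chosen with earlier results of these data known. Genes named outside the members are those of the lists that moved at least 1.5-fold the same way in both lines or had a limma adjusted p under 0.05, the cell type markers, and the 5 genes outside the members nearest to CYR61, apart from those the text marks as picked later. Alternatives were a pseudocount of 0.1 RPKM, no filter, a minimum of 5 RPKM, quantile normalization, upper quartile scaling, and limma without covariate or trend.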

Additional observations from a re-analysis of the deposited data

Results flagged for a closer look

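For CTGF the knockdown log2 fold change was 1.21 lower in Huh7 than in Huh1 (a difference of −1.21), and for AMOTL2 it was lower by 0.89 (−0.89). Both were picked out because the single Huh1 pair moved up (ratios of 2.07 and 1.75) and the single Huh7 pair moved down (0.860 and 0.891). Each direction rests on 1 pair of libraries, and the difference between the lines was not tested.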

How the results depend on the processing

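The 8 line calls among the 9 genes (7 higher and 1 lower in Huh7) were kept under each alternative. No fold change, difference or count reported for these genes or lists changed direction. Medians of all genes passed 0 under quantile normalization for the lines (−0.01), for knockdown in Huh1 (−0.01) and for the shared fit (−0.00096). The median for knockdown in Huh1 also passed 0 under upper quartile scaling (−0.0027). A pseudocount of 0.1 RPKM gave 107 genes at least 2-fold higher and 57 lower in Huh1, and 269 and 153 in Huh7. Quantile normalization gave 22 genes 2-fold higher in Huh1, moving the share of higher among the 2-fold calls from 64.8% to 52.4%, gave 635 higher and 625 lower in the shared fit, and brought the CYR61 response difference to −0.11. The shared fit called 454 genes higher and 322 lower, but 0 and 0 in limma without the filter (2440 at an unadjusted p under 0.05) and without the cell line covariate (75 at an unadjusted p under 0.05), and 30 and 15 without the trend. AJUBA, TEAD2, MYOF, IGFBP3 and NT5E were therefore no longer called in those 3 fits (limma adjusted p without the trend 0.143, 0.0675, 0.0846, 0.0955 and 0.0536), and AJUBA also at a pseudocount of 0.1 RPKM (0.0521). CDCA8 was not called without the filter (limma adjusted p = 0.252) or without the cell line covariate (1.00). The line calls of MYOF and NT5E were lost without the siRNA covariate (limma adjusted p = 0.126 and 0.0875), and that of CDCA8 there (0.601) and without the filter (0.0721). The cause was not tested. Each condition has 1 library, so there was no replicate to pair by number within a line. The shared fit paired the libraries by cell line through its covariate, and none could be left out. AXL and TEAD4, with 147 to 329 reads per library, have wide counting intervals.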
